A study of Homo sapiens with 15 samples.

Results

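The 60 genes described here lie on the long arm of human chromosome 6, from TTK (chr6:80003887 is its start) to PSMB1 and TBP near the end of the arm. They are 60 of the 60675 genes in the deposited table. They were selected on their measured counts: in these same data those counts were low together in replicates 2 and 3 of 1 group. Their levels in those 2 libraries are therefore given as a description. Group tests that include those libraries add no evidence of the low level. In the filter on low counts 59 of the 60 members passed. The remaining member, MARCKS, a protein kinase C substrate at the membrane, had 0 counts in every KDAC4 H803A and KDAC7 H709A library, 2, 0, 1 and 0 counts in KDAC4 H976Y, and 9, 16 and 15 counts with TMP195.

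The libraries are from HT1080, an established human fibrosarcoma line, and hold total RNA after removal of ribosomal RNA. Cells whose own KDAC4 (gene HDAC4) carried H803A gave 4 samples, those whose KDAC4 carried H976Y gave 4, those whose KDAC7 (gene HDAC7) carried H709A gave 4, and wild-type cells kept for 2 days with TMP195 at 1 µM gave 3. KDAC4 and KDAC7 belong to the class IIa lysine deacetylases. The series title calls its variants inactive; exchanging the class IIa histidine for tyrosine, as in H976Y, is known to raise catalytic activity. TMP195 inhibits that class. The variant cells were untreated, and untreated wild-type cells were not analysed here. Whether a group is 1 clone, and whether its replicates are separate cultures, is not stated, so that a p-value here speaks of how far these samples scatter, and that scatter could be technical alone.

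The number of copies of a chromosome segment in a cell line sets the RNA level of many of its genes, so that neighbours with unrelated functions can move together. Neighbours also tend to share base composition, and libraries can differ in how well they recover AT-rich or GC-rich transcripts. Both are background. Copy number was not measured here, and in bulk RNA fewer cells with a transcript and less of it per cell cannot be told apart.

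The members' transcripts were poor in G and C. Their median GC content was 40.8%, with a range from 34.9% (ASF1A) to 53.7% (AKIRIN2), against a median of 48.6% over 16780 tested genes outside chromosome 6. Both ends of that range are shown by 120 coding bases from the middle of the longest coding exon, from GENCODE v29 on GRCh38, with every G and C in capitals. ASF1A, a histone chaperone, is on the plus strand (chr6:118907447-118907566, exon 4, 40% GC), and AKIRIN2, a nuclear cofactor of transcription, on the minus strand (chr6:87701508-87701627, exon 1, 78.3% GC).
ASF1A: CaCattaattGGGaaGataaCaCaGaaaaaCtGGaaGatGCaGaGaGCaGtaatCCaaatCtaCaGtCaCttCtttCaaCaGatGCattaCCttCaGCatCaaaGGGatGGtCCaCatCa
AKIRIN2: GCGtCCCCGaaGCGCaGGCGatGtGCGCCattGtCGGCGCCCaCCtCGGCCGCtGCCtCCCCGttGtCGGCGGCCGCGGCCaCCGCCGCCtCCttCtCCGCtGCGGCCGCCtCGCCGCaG
The 2 stretches show how far members that share 1 chromosome arm differ in composition. Their promoters did not share the low GC content of the transcripts: 56 members matched a RefSeq promoter window (GRCh38.p14), with a median of 66.3% GC against 58.7% over 35116 windows. Unlike those of the members, the 35116 windows were not limited to 1 per gene or to coding or tested genes.

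Several facts about the libraries bear on all results. Total counts ran from 6151383 to 24297487. The column of KDAC4 H803A replicate 4 holds effective gene lengths in place of counts, since 7363 of 7608 genes with 1 transcript (96.8%) stood at the transcript length minus 248.9 bases. It was left out, so that 14 libraries remained. KDAC4 H803A replicate 1 was more like KDAC7 H709A replicate 4 than like any library of its own group. Whether either label is right was not settled here, and every H803A or H709A mean, SD and group call below rests on the labels as deposited. The counts of that pair differed by 2.10 times the Poisson noise, the least of all pairs, while H803A replicate 1 differed from replicates 2 and 3 by 208 and 240.0 times and those 2 from each other by 29.4 times. H709A replicate 4 differed from H709A replicates 2 and 3 by 64.3 and 77.1 times. H709A replicate 1 differed from the others of its group by 152 to 282 times, and from H803A replicates 3 and 2 by 32.1 and 51.3 times. Replicates 2 and 3 of H803A and replicate 1 of H709A shared a skew in base composition: the genes richest in GC (highest 25%) stood above the poorest 25% by 1.29, 1.21 and 1.15 on the log2 scale, against -0.82 to 0.54 in the other libraries. The H976Y libraries spent 16.1% to 31.5% of their counts on mitochondrial ribosomal RNA, the others at most 0.345%. Summed fibroblast and mesenchymal markers (VIM, CD44, FN1, S100A4, LGALS1 and THY1) stood between 3568 and 8559 CPM (counts scaled to a common library size) in all groups. S100A4 and THY1 added little to that sum, at no more than 1.13 and 1.75 CPM in any library. Epithelial and blood markers each summed to at most 0.282 CPM, endothelial ones to at most 3.82 CPM and neural ones to at most 5.21 CPM.

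The members were low in replicates 2 and 3 of H803A and in no other library to a like extent. Their CPM summed to 2036 and 2000 there, against 5877 in H803A replicate 1 and 3481 to 6014 in the other 11 libraries. For each member, the deviation of log2(CPM + 0.5) from its median over the 14 libraries was taken, and the trends with GC content and transcript length were then removed in each library, with all tested genes outside chromosome 6 at a median of 0. The median deviation of the members was then 0.14, -0.74 and -0.86 in H803A replicates 1, 2 and 3. On a linear scale the last 2 are 0.598 and 0.550 times the usual level. Coding genes alone stood a little below 0 there: the 12594 outside chromosome 6 had medians of -0.10 and -0.12 in replicates 2 and 3. With the trends and the level taken from those coding genes, an alternative added after the data were seen, the members stood at 0.09, -0.65 and -0.73 in replicates 1, 2 and 3, the last 2 being 0.635 and 0.604 times the usual level. With all genes as the level, the members' median was -0.02, -0.01, 0.05 and -0.22 in H976Y, -0.04, 0.06, 0.18 and 0.13 in H709A, and 0.11, 0.11 and 0.05 with TMP195. The spread of this median between replicates was 0.55 in H803A (SD, n = 3), against 0.12 in H976Y (SD, n = 4), 0.10 in H709A (SD, n = 4) and 0.03 with TMP195 (SD, n = 3). In replicates 2 and 3 of H803A 56 and 55 of the 59 members lay below 0, and in replicate 1 it was 13.

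**Figure D1:**
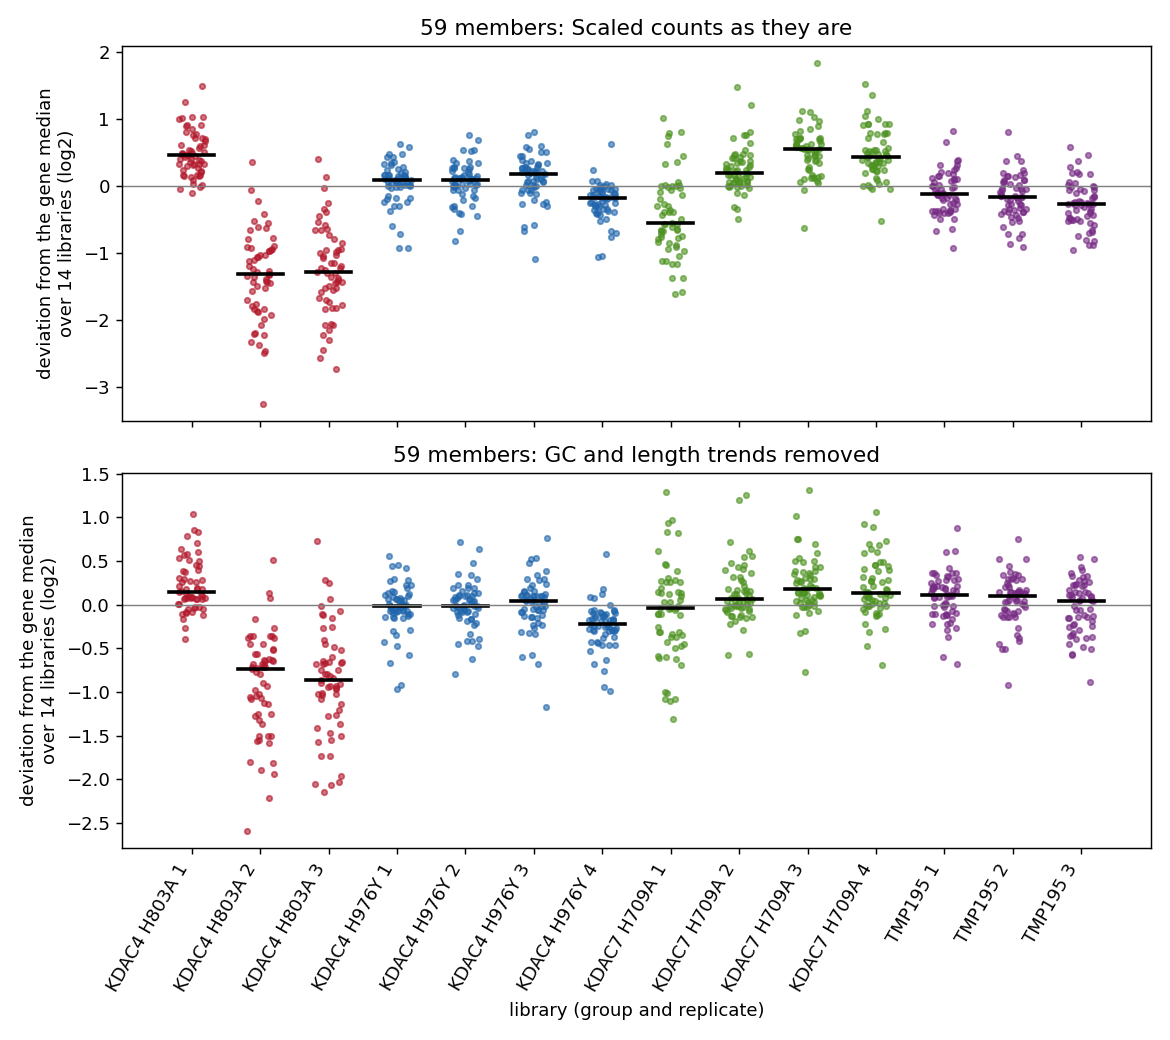
Deviation of each of 59 members from its own median (log2) in each of 14 libraries, without (top) and with (bottom) removal of the GC and length trends; each point is a member and each bar the library's median. The medians of KDAC4 H803A replicates 2 and 3 are the lowest in both panels, and that of KDAC7 H709A replicate 1 moves from -0.56 to -0.04.

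Base composition moved with the shift. Before the trends were removed, the members' median was -1.31 and -1.28 in H803A replicates 2 and 3 and -0.56 in H709A replicate 1, which shares their skew. After removal the H709A library stood at -0.04, and the 2 H803A libraries kept -0.74 and -0.86. Set against genes outside chromosome 6 in the same GC band, the 26 members under 40% GC were lower by 0.80 and 0.85 in H803A replicates 2 and 3, the 16 members at 40% to 45% by 0.72 and 0.89, and the 15 members at 45% to 50% by 0.88 and 0.92. In H709A replicate 1 the same 3 bands of members differed from other genes by -0.11, -0.05 and 0.07. Against coding genes alone the 3 bands of members were lower by 0.67, 0.60 and 0.73 in H803A replicate 2 and by 0.74, 0.76 and 0.76 in replicate 3, and differed by 0.02, 0.06 and 0.23 in H709A replicate 1. The members were also counted more deeply (a median mean of 47.1 CPM, not scaled by length, against 14.4 CPM outside chromosome 6). With mean expression added to the trends, their medians were -0.59 and -0.69 in H803A replicates 2 and 3.

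**Figure D2:**
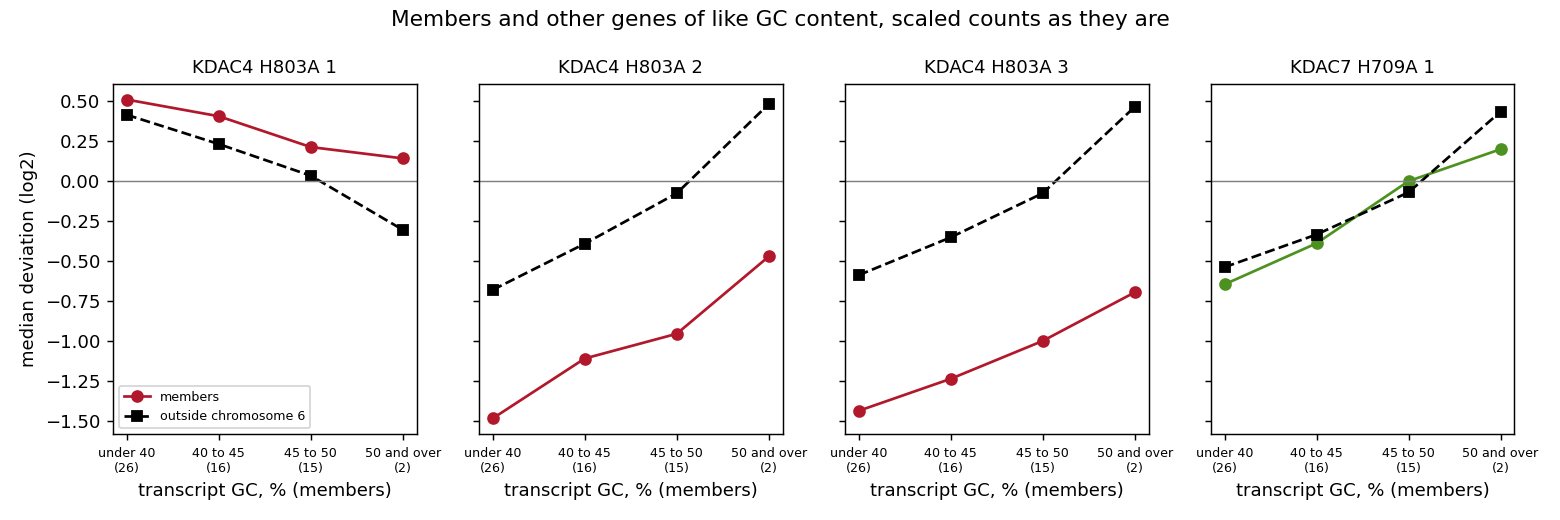
Median deviation (log2, GC and length trends not removed) of members and of tested genes outside chromosome 6 in 4 bands of transcript GC, for 4 libraries; the number of members in each band is in parentheses. In KDAC4 H803A replicates 2 and 3 the members lie below the other genes in every band, and in KDAC7 H709A replicate 1 they differ by at most 0.11 in the 3 bands with more than 2 members.

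The low level was not confined to the listed genes or to the distal part of the arm. The 214 other tested coding genes from TTK onward had medians of -0.63 and -0.58 in H803A replicates 2 and 3. The 31 coding genes between 60 Mb and TTK had -0.66 and -0.70, and the 393 coding genes on the short-arm side had -0.05 and -0.10. The data therefore go against a border at about 80 Mb, where the list starts. SH3BGRL2 and ELOVL4, just outside it, stood at -0.62 and -0.31, and at 0.32 and -0.29, in H803A replicates 2 and 3. TTK and BCKDHB, just inside it, stood at -1.80 and -1.57, and at -0.51 and -0.12. The last tested coding gene before 60 Mb, the primase subunit PRIM2, stood at -0.42 and -0.25, and the first after it, the phosphatase PTP4A1, at -1.52 and -1.88. Their neighbours varied. Before PRIM2, BEND6 stood at 0.19 and 0.62, KIAA1586 at -0.39 and -0.26 and ZNF451 at -0.28 and -0.07. BAG2 stood at -0.35 and -0.25, and RAB23 at -0.79 and -0.43. After PTP4A1, PHF3 stood at -0.50 and -0.51, EYS at -0.16 and -1.61 and ADGRB3 at 1.27 and 0.35. LMBRD1 stood at -1.07 and -1.28, FAM135A at -0.30 and -0.46, SDHAF4 at -0.95 and -0.67 and SMAP1 at -1.51 and -1.72. In bins of 10 Mb the medians from 60 Mb on ran from -1.02 to -0.44 in replicate 2 and from -1.28 to -0.14 in replicate 3. Those before 60 Mb ran from -0.31 to -0.02 and from -0.21 to 0.01. The shallowest bin of the arm, 120 to 130 Mb (21 genes), was at -0.14 in replicate 3, within the range of the bins before 60 Mb.

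**Figure D3:**
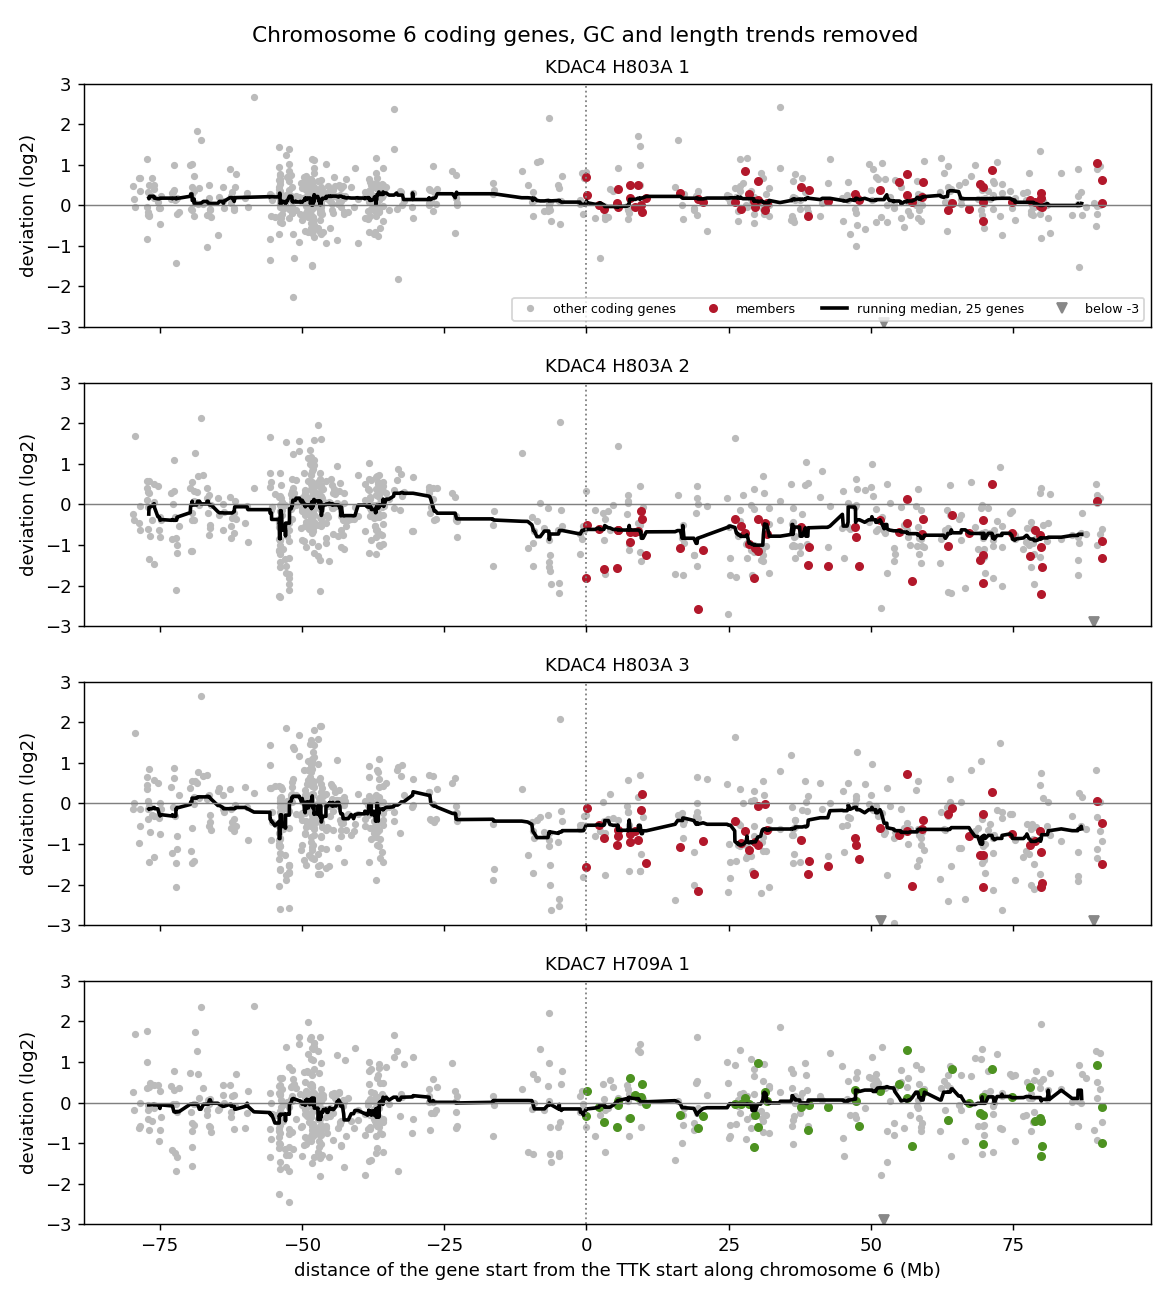
Deviation (log2, GC and length trends removed) of tested coding genes along chromosome 6 in 4 libraries, against the distance of the gene start from the TTK start in Mb; coloured points are members, the line is a running median over 25 genes and triangles mark genes below -3. In KDAC4 H803A replicates 2 and 3 the line drops to the left of TTK and stays below 0 along the whole long arm (medians of members -0.74 and -0.86), and in KDAC4 H803A replicate 1 and KDAC7 H709A replicate 1 it does not (0.14 and -0.04).

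Gene by gene, the groups of values often did not overlap. In CPM, 48 of 59 members (81.4%) were lower in both H803A replicates 2 and 3 than in each of the other 12 libraries, against 11.2% of all genes tested. With the trends removed it was 43 members, against 10.3% of all genes. No member was above all 12. Of the other coding genes from TTK onward 51.9% were below all 12 in CPM, and of those on the short-arm side 10.2%. The 11 members whose CPM overlapped were REV3L, FYN, PEX3, MDN1, WASF1, CASP8AP2, AKAP12, AKIRIN2, MAP7, PNRC1 and UTRN. These counts come from the comparison that chose the members and support nothing by themselves.

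**Figure D4:**
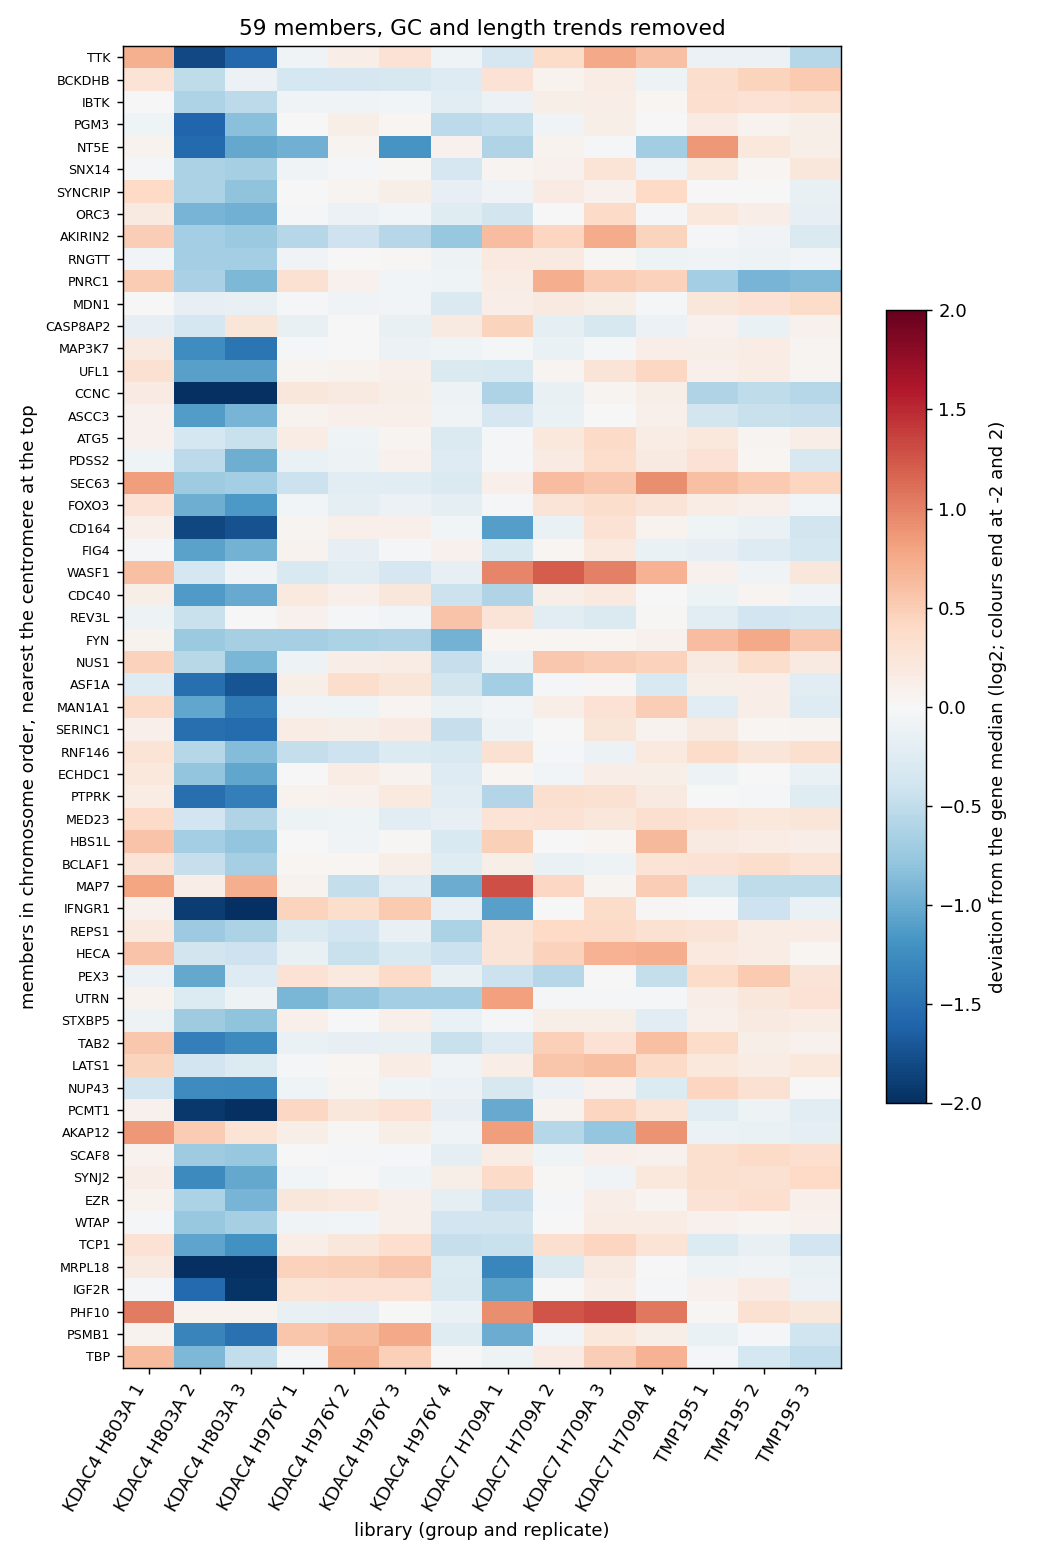
Deviation (log2, GC and length trends removed) of 59 members, in chromosome order from the centromere side down, in 14 libraries; blue is below and red above the gene's median, and colours end at -2 and 2. Nearly all rows are blue in KDAC4 H803A replicates 2 and 3 (56 and 55 of 59 below 0), with MAP7 and AKAP12 the exceptions in both besides PHF10.

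Among genes of the cell cycle, replication and DNA damage, 5 of 7 members were below all other libraries in both H803A replicates 2 and 3, and the group's medians were -1.12 and -0.96. TTK, the spindle checkpoint kinase also called MPS1, stood at 75.8, 6.98 and 8.55 CPM in H803A replicates 1 to 3, 39.8, 46.3, 53.5 and 35.4 in H976Y, 21.4, 52.5, 81.6 and 71.6 in H709A and 29.5, 29 and 20.1 with TMP195. ORC3, a subunit of the origin recognition complex, stood at 34.6, 7.95 and 8.11 CPM in H803A replicates 1 to 3, 27.2, 25.7, 27.8 and 21.6 in H976Y, 12.6, 26.8, 41.6 and 30.7 in H709A and 22.7, 21.1 and 16.7 with TMP195. ASF1A, the histone chaperone shown above, stood at 18.4, 2.81 and 2.52 CPM in H803A replicates 1 to 3, 19.4, 23.3, 21.8 and 13.8 in H976Y, 5.79, 18.7, 24.7 and 18.2 in H709A and 11.9, 11.5 and 8.89 with TMP195. In all 3 genes replicates 2 and 3 of H803A were the lowest of the 14 libraries. The next lowest was TMP195 replicate 3 for TTK and H709A replicate 1 for the other two. REV3L, the catalytic subunit of DNA polymerase zeta, and CASP8AP2 were the 2 that overlapped. CASP8AP2 stood at 41.1, 16.7 and 26.8 CPM in H803A replicates 1 to 3, 33.6, 36.9, 34.4 and 39.5 in H976Y, 32.4, 35.1, 38.2 and 43.4 in H709A and 28.6, 23.6 and 26.7 with TMP195, and REV3L is described with the group tests.

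Of the 6 signalling members 5 were below all other libraries. MAP3K7 (the kinase TAK1) and TAB2, which binds it and links it to ubiquitin chains, act together downstream of inflammatory receptors. MAP3K7 stood at 110.0, 19.5 and 17.4 CPM in H803A replicates 1 to 3, 80.2, 80.8, 77.4 and 70.4 in H976Y, 49.7, 77.1, 101 and 109 in H709A and 63.8, 63.7 and 57.2 with TMP195. TAB2 stood at 112, 15.1 and 16.9 CPM in H803A replicates 1 to 3, 61, 59.9, 62.9 and 44.9 in H976Y, 35.9, 94.3, 99.2 and 121 in H709A and 64.8, 53.4 and 50.1 with TMP195. In H803A replicates 2 and 3 both lay below every other library. Their partners TAB1 and TAB3, which lie outside chromosome 6, ranged from 0.13 to 0.45 and from 0.37 to 0.50 (log2 deviation, trends removed) in those libraries, against -1.25 to -1.37 and -1.27 to -1.47 for the pair of members. LATS1, a kinase of the Hippo pathway, stood at 83.7, 24.1 and 27.2 CPM in H803A replicates 1 to 3, 49.1, 51.8, 57.4 and 45.1 in H976Y, 38.2, 80.2, 96.5 and 82.1 in H709A and 45.1, 41.8 and 42.4 with TMP195. Its trend-removed deviations, -0.38 and -0.27, lay within the range of the other 6 Hippo genes listed.

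The 14 members with roles in transcription and RNA had medians of -0.67 and -0.71 in H803A replicates 2 and 3. Of these, 12 were below all other libraries in CPM, and 9 with the trends removed. CCNC, the cyclin of the Mediator kinase module, was the lowest of all members in both libraries, at -2.59 and -2.15 on the trend-removed scale. Its CPM values were 43.1, 2.81 and 4.17 CPM in H803A replicates 1 to 3, 41, 40.2, 39.4 and 30.5 in H976Y, 13.2, 30.3, 42.1 and 43 in H709A and 15.9, 16.6 and 15.4 with TMP195. The 4 other genes of that module outside chromosome 6 ranged from -0.51 to 0.23 and from -0.31 to 0.38. MED23, a Mediator tail subunit, stood at 57.9, 19.2 and 16.9 CPM in H803A replicates 1 to 3, 36, 36.6, 34.2 and 31.3 in H976Y, 32.5, 48.2, 53.6 and 56.8 in H709A and 37.8, 35.5 and 34.6 with TMP195. TBP, the TATA-binding protein, stood at 21.9, 6.30 and 8.33 CPM in H803A replicates 1 to 3, 13.5, 23.3, 19.9 and 13.2 in H976Y, 11, 15.1, 20.2 and 23.3 in H709A and 13.3, 10.6 and 9.36 with TMP195. TBP was lowest in H803A replicates 2 and 3, but TMP195 replicate 3 came close to them. FOXO3, a forkhead factor restrained by AKT, stood at 86.6, 36.4 and 31.5 CPM in H803A replicates 1 to 3, 61.4, 56.3, 59.2 and 54 in H976Y, 70.1, 85.6, 90.9 and 86.1 in H709A and 81.4, 79.4 and 69.5 with TMP195. WTAP, a regulatory subunit of the m6A methyltransferase, stood at 77.8, 32.8 and 35.3 CPM in H803A replicates 1 to 3, 70.5, 72.2, 82.4 and 51.7 in H976Y, 44.6, 73.2, 90.0 and 89.1 in H709A and 70.4, 69.1 and 67.4 with TMP195. FOXO3 and WTAP both lay below every listed partner outside chromosome 6 on the trend-removed scale. PHF10, a subunit of a SWI/SNF remodelling complex, stood at 116, 26.5 and 27.7 CPM in H803A replicates 1 to 3, 41.5, 41.4, 47.2 and 39.5 in H976Y, 53, 117, 149 and 120.2 in H709A and 32, 37.7 and 34.9 with TMP195. Its CPM was lowest in H803A replicates 2 and 3, at deviations of -0.66 and -0.58 before and 0.07 and 0.06 after the GC and length trends were removed.

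All 7 members of protein folding, modification and turnover were below all other libraries, with medians of -1.06 and -1.21. In H709A replicate 1 their trend-removed median was -0.45, with 6 of 7 below 0. PSMB1, a subunit of the 20S proteasome core, stood at 84, 35 and 29.8 CPM in H803A replicates 1 to 3, 126, 137, 147 and 75.4 in H976Y, 40.5, 77.1, 92.5 and 89.2 in H709A and 84.7, 89.1 and 70.7 with TMP195. The 13 other core subunits were also low in H803A replicates 2 and 3 (medians -0.90 and -1.10), and PSMB1 lay just below their range in replicate 2 and within it in replicate 3. TCP1, a subunit of the CCT chaperonin, stood at 236, 64.3 and 58.4 CPM in H803A replicates 1 to 3, 205, 221, 246 and 125 in H976Y, 100.3, 220.5, 267 and 239 in H709A and 132, 145 and 118 with TMP195. The other 7 subunits had medians of -0.58 and -0.76, and TCP1, at -1.06 and -1.21, lay below all of them, by a narrow margin in replicate 2 (the lowest of the 7 at -1.03). It lay below all 7 in the 4 H976Y libraries as well. PCMT1, which repairs damaged aspartyl residues in proteins, stood at 31.5, 6.59 and 5.81 CPM in H803A replicates 1 to 3, 39.3, 35, 36.9 and 24.9 in H976Y, 12.5, 30.4, 41 and 37 in H709A and 24.9, 27.5 and 24.6 with TMP195. It was among the 3 lowest members in both libraries.

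The 6 members at the cell surface showed the deepest medians of any role in H803A replicates 2 and 3, -1.55 and -1.64. All 6 were below the other libraries in CPM, and 5 with the trends removed. In H709A replicate 1, which shares the skew in base composition, their trend-removed median was -0.84, with all 6 below 0. Medians of the other roles ran from -0.45 to 0.83 there. CD164, a sialomucin, stood at 201, 26.8 and 29.6 CPM in H803A replicates 1 to 3, 173, 179, 185 and 147 in H976Y, 47.6, 148, 241 and 201 in H709A and 112, 107 and 87.8 with TMP195. IFNGR1, the ligand-binding chain of the interferon gamma receptor, stood at 14.3, 1.55 and 1.43 CPM in H803A replicates 1 to 3, 17, 16.1, 18.8 and 10.1 in H976Y, 3.28, 11.6, 18.2 and 14 in H709A and 8.95, 6.47 and 7.69 with TMP195. IGF2R, the cation-independent mannose 6-phosphate receptor, stood at 460.0, 184 and 136 CPM in H803A replicates 1 to 3, 506, 514, 508 and 360.2 in H976Y, 261, 497, 523 and 467 in H709A and 525, 556 and 459.9 with TMP195. In CD164 and IFNGR1 H709A replicate 1 was the next lowest library. PTPRK, a receptor tyrosine phosphatase, stood at 154, 33.1 and 36.7 CPM in H803A replicates 1 to 3, 128, 130.4, 145 and 96.2 in H976Y, 66.2, 159.8, 175 and 161 in H709A and 111, 109 and 90.2 with TMP195. NT5E, the ectonucleotidase CD73, was close to absent in this table, at 1.52, 0 and 0.219 CPM in H803A replicates 1 to 3, 0.422, 1.4, 0.325 and 1.24 in H976Y, 0.483, 1.39, 1.44 and 0.713 in H709A and 2.60, 1.47 and 1.27 with TMP195. Its value in H803A replicate 2 rests on 0 counts, so that only an upper limit can be read there.

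Organelle, trafficking and autophagy genes included 8 members, with medians of -0.87 and -0.74, of which 7 were below all other libraries. ATG5, needed to conjugate LC3 on autophagosome membranes, stood at 30.3, 10.9 and 10.7 CPM in H803A replicates 1 to 3, 28.2, 24.1, 27.4 and 19.2 in H976Y, 14.9, 29.1, 39.8 and 32.6 in H709A and 20.7, 18 and 18.5 with TMP195. UFL1, the ligase that attaches UFM1, stood at 48.1, 7.27 and 7.79 CPM in H803A replicates 1 to 3, 31.7, 32.1, 33.6 and 24.1 in H976Y, 14.1, 34.6, 50.3 and 52.7 in H709A and 21.2, 21.2 and 19.5 with TMP195. SEC63, part of the endoplasmic reticulum translocation machinery, stood at 134, 22.7 and 24.2 CPM in H803A replicates 1 to 3, 46, 53, 54.8 and 46.5 in H976Y, 44, 99.9, 112 and 146 in H709A and 71.1, 65.7 and 59 with TMP195. In these 3 genes H803A replicates 2 and 3 were the lowest libraries. PEX3, which inserts membrane proteins into peroxisomes, stood at 12, 2.33 and 4.61 CPM in H803A replicates 1 to 3, 13.2, 12.4, 14.5 and 9.68 in H976Y, 4.05, 7.46, 14 and 9.52 in H709A and 8.64, 9.22 and 7.62 with TMP195, and H709A replicate 1 lay between those 2 libraries.

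The 5 tested members of the cytoskeleton and membrane scaffold deviated least, with medians of -0.27 and -0.07, and only EZR was below all other libraries. EZR (ezrin), which ties actin to the membrane, stood at 173, 126 and 99 CPM in H803A replicates 1 to 3, 199, 199, 188 and 143 in H976Y, 136, 166, 184 and 173 in H709A and 232, 247 and 207 with TMP195. AKAP12, an anchoring protein for kinase A, stood at 286, 188 and 158 CPM in H803A replicates 1 to 3, 148, 139, 150.2 and 125 in H976Y, 242, 102, 92.6 and 297 in H709A and 131, 129 and 122 with TMP195. Its lowest libraries were H709A replicates 3 and 2, and H803A replicate 1, H709A replicates 1 and 4 were high. MAP7, a microtubule-binding protein, stood at 5.00, 1.94 and 3.18 CPM in H803A replicates 1 to 3, 2.53, 1.60, 2.06 and 0.824 in H976Y, 5.12, 3.38, 2.88 and 4.07 in H709A and 1.65, 1.34 and 1.27 with TMP195. AKAP12 and MAP7 were the 2 members above 0 on the trend-removed scale in both H803A replicates 2 and 3 by more than 0.1. The 3 members in translation and ribosomes had medians of -0.68 and -0.79. Of these MRPL18, a protein of the mitochondrial ribosome, stood at 27.7, 5.14 and 5.59 CPM in H803A replicates 1 to 3, 35.2, 36.8, 38 and 21.8 in H976Y, 9.36, 19.8, 27.5 and 24.9 in H709A and 25.5, 25.9 and 24.9 with TMP195, among the 3 lowest members in both libraries. MDN1, a large ATPase of ribosome assembly, was at -0.17 and -0.15. The 3 metabolic members (BCKDHB, PDSS2 and ECHDC1) had medians of -0.52 and -0.97. All 3 were below the other libraries in CPM, and 2 with the trends removed.

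A list of complexes that hold a member allowed members to be set beside partners elsewhere in the genome. The 66 tested partners outside chromosome 6 had medians of -0.31 and -0.43 in H803A replicates 2 and 3, and the 16 members in these complexes had -1.04 and -1.11. In H709A replicate 1 the 2 medians were -0.41 and -0.35. CCNC, ORC3, TTK, FOXO3, WTAP, TCP1, EZR, IGF2R and the pair MAP3K7 and TAB2 lay below all their partners in both H803A libraries. For ORC3 and FOXO3 that held in 0 of the other 12 libraries. For the rest it held in some of those 12 as well: 2 for WTAP, 3 for TTK and for EZR, 4 for TCP1, 5 for CCNC and for the lower of MAP3K7 and TAB2, and 8 for IGF2R, which has 1 partner. BCKDHB and LATS1 lay below all their partners in neither H803A library. Some partners were themselves low elsewhere, which limits what the 0 for ORC3 and FOXO3 shows. FOXO1, 1 of the 2 partners of FOXO3, stood at -1.65 to -1.04 in H976Y. Of the partners of ORC3, ORC6 stood at -0.91 to -0.79 in H976Y and ORC4 at -0.89 to -0.56 with TMP195. Of the 66 partners, edgeR called 3 higher and 9 lower in H803A against H976Y, 6 higher and 5 lower in H709A against H976Y, 4 higher and 4 lower in TMP195 against H976Y and 2 lower in TMP195 against H709A. Of all genes, 9.21% were called higher and 5.85% lower in the first, 7.28% and 5.19% in the second. In the third they were 7.96% and 8.55%, and in the last 4.31% were called lower. In H803A against H709A and against TMP195 edgeR called 0 partners, with 2 and 7 at an unadjusted p under 0.05, and DESeq2 called 0 and 4. Of all genes, edgeR called 0% and 5.34% there, and DESeq2 0.444% and 10.9%.

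Tests between the labelled groups were run with edgeR's quasi-likelihood F test over 17780 genes in 1 model, and a gene was called at a Benjamini-Hochberg adjusted p under 0.05. With all 3 libraries of H803A kept, hardly any member was called. The comparisons with H803A hold replicates 2 and 3, on which the members were chosen, so their calls add no evidence of the low level. Against H976Y, PSMB1 alone was called lower of 59 (15.1% of all genes were called in either direction, 9.21% higher and 5.85% lower). Its mean was 49.6 ± 29.9 CPM (SD, n = 3) against 121.3 ± 31.8 CPM (SD, n = 4), a log2 difference of -1.29 ± 0.38 (SE) with an edgeR adjusted p of 0.0391. That call was lost when H803A replicate 2 or 3, H976Y replicate 1, 2 or 3, H709A replicate 2 or any TMP195 library was left out (adjusted p 0.0529 to 0.182). Against H709A, edgeR called 0 members and 0 genes (0%), while 12 members and 1118 genes had an unadjusted p under 0.05, and DESeq2 called 79 genes and 0 members. Against TMP195, FYN alone was called lower (5.34% of all genes either way, 3.78% higher and 1.56% lower). The median log2 difference of members was -0.51, -0.73 and -0.22 in these 3 comparisons, and that of all genes 0.09, -0.02 and 0.11.

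Those counts depended on replicate 1 of H803A. Without it, 50 of 60 members were called lower against H976Y, where 22.9% of all genes were, 55 of 60 against H709A, where 16.9% of all genes were, and 40 of 60 against TMP195, where 6.62% of all genes were. No member was called higher in any of the 3. MARCKS then passed the filter too. With offsets for GC content and length besides, 42, 50 and 51 members were called lower, against 23.3%, 12.2% and 11.1% of all genes. These are the contrast that chose the members, so they add no evidence to it. In CPM the H803A group, with all 3 libraries, did not overlap with H976Y in 3 members (23.1% of all genes), with H709A in 1 (2.01%) and with TMP195 in 7 (24.3%).

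The 3 comparisons without H803A set against each other the libraries that served as the comparator when the members were chosen. Of 59 members, 6 were called in H709A against H976Y, all higher (12.5% of all genes were called, 7.28% higher and 5.19% lower). In TMP195 against H976Y 3 were called higher and 1 lower (16.5% of all genes, 7.96% higher and 8.55% lower), and in TMP195 against H709A 2 were called lower (6.29% of all genes, 1.99% higher and 4.31% lower). The shares of members called either way, 10.2%, 6.78% and 3.39%, were under those of all genes, while 10.2% of members against 7.28% of all genes were called higher in H709A. In CPM 12 members did not overlap between H709A and H976Y (20.1% of all genes), 32 between TMP195 and H976Y (53.8%) and 13 between TMP195 and H709A (24.3%). The median log2 differences of members were 0.22, -0.28 and -0.50, and those of all genes 0.09, 0.03 and -0.07. The comparisons share libraries, and the model's spread also draws on H803A: without H803A replicate 1 the 3 counts were 11, 11 and 12 of 60 (18.3%, 18.3% and 20% of members, against 18.5%, 27.3% and 14.6% of all genes). Without H709A replicate 1 besides, they were 28, 34 and 44 of 60 (46.7%, 56.7% and 73.3%, against 33.9%, 48.3% and 47.6% of all genes), so whether the members' share lies above or below that of all genes depends on these 2 libraries. H976Y replicate 4, which has the largest share of mitochondrial ribosomal RNA, was low for members (-0.22, with 53 of 59 below 0) and alike for the short-arm side (-0.22), and the part of that RNA in the result was not tested.

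FYN, a Src-family kinase, was called in 3 comparisons. Its levels were 50.7, 28.1 and 29.1 CPM in H803A replicates 1 to 3, 29, 30.3, 31.4 and 22.5 in H976Y, 47.6, 48.8, 50.5 and 52.1 in H709A and 76.5, 85.7 and 72.2 with TMP195. H976Y and TMP195 did not overlap with each other or with H709A. FYN was higher with TMP195 than in H976Y, by 1.46 ± 0.21 (SE) on the log2 scale (edgeR adjusted p = 0.000644), and no left-out library ended that call. It was higher in H709A than in H976Y by 0.81 ± 0.20 (adjusted p = 0.0171), a call lost without H976Y replicate 1 or 2 (adjusted p 0.0561 and 0.0506). It was lower in H803A than with TMP195, by -1.12 ± 0.23 (adjusted p = 0.011), a call lost without H803A replicate 2 or 3 or TMP195 replicate 2 (adjusted p 0.0549 to 0.0793). That comparison holds H803A replicates 2 and 3, on which the members were chosen, so this call adds no evidence of their low level.

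WASF1, AKIRIN2 and UTRN were higher in H709A than in H976Y, and their calls held without any 1 library, with all labels kept as deposited. WASF1 (WAVE1), which activates branched actin assembly, stood at 30.3, 12.9 and 15.7 CPM in H803A replicates 1 to 3, 15.2, 16.3, 15.5 and 15.4 in H976Y, 33.1, 44.1, 41.3 and 32.6 in H709A and 19.6, 17.9 and 21.3 with TMP195. The 4 H976Y libraries lay within 1 narrow range and the H709A libraries were all above it, a log2 difference of 1.27 ± 0.24 (SE; edgeR adjusted p = 0.00391). AKIRIN2, the nuclear cofactor shown above, stood at 45.2, 28.1 and 25.4 CPM in H803A replicates 1 to 3, 24.2, 28, 24.6 and 21.2 in H976Y, 64.1, 45.9, 54.2 and 44.1 in H709A and 39.9, 39.8 and 34.4 with TMP195. It was higher in H709A by 1.09 ± 0.20 (adjusted p = 0.00391). UTRN (utrophin), the relative of dystrophin, stood at 184, 99.2 and 113 CPM in H803A replicates 1 to 3, 78.1, 85.1, 93.2 and 91.2 in H976Y, 230.2, 161, 177 and 174 in H709A and 146, 152 and 155 with TMP195. It was higher in H709A by 1.09 ± 0.20 (adjusted p = 0.00307) and higher with TMP195 than in H976Y by 0.80 ± 0.21 (adjusted p = 0.0207). The second call was lost without H976Y replicate 1, 2 or 3 or any TMP195 library (adjusted p 0.0551 to 0.0795).

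Each of the other calls was lost when certain single libraries were left out. MDN1 stood at 244, 236 and 237 CPM in H803A replicates 1 to 3, 204, 199.5, 197 and 188 in H976Y, 302, 293, 265 and 241 in H709A and 279, 289.7 and 313 with TMP195, with little spread in H976Y. It was higher in H709A than in H976Y by 0.48 ± 0.13 (SE; edgeR adjusted p = 0.027) and higher with TMP195 by 0.58 ± 0.14 (adjusted p = 0.0138). The first was lost without H976Y replicate 1, 2 or 3, H709A replicate 2 or TMP195 replicate 1 or 2 (adjusted p 0.051 to 0.0746), the second without TMP195 replicate 2 or 3 (0.0586 and 0.0758). With GC and length offsets the 2 differences were 0.20 and 0.39 (adjusted p 0.3 and 0.0514). HECA, the human relative of the fly gene headcase, stood at 30.4, 11.6 and 11.2 CPM in H803A replicates 1 to 3, 16, 13.1, 14.8 and 12.2 in H976Y, 18.7, 26.1, 33.6 and 34.5 in H709A and 19.9, 19.2 and 17.1 with TMP195. It was higher in H709A than in H976Y by 1.01 ± 0.31 (adjusted p = 0.0479), a call lost without any H976Y or TMP195 library or H709A replicate 2, 3 or 4 (adjusted p 0.0712 to 0.136).

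Lower with TMP195 were REV3L, PNRC1 and again WASF1. REV3L stood at 142, 61.8 and 87.5 CPM in H803A replicates 1 to 3, 132, 122, 121 and 181 in H976Y, 112, 118, 129 and 158 in H709A and 84.6, 73.1 and 73.3 with TMP195. It was lower with TMP195 than in H976Y, by -0.85 ± 0.26 (SE; edgeR adjusted p = 0.0407), and by -0.49 with GC and length offsets (adjusted p = 0.0659). That call was also lost without any H976Y or TMP195 library, H709A replicate 2 or 3 or H803A replicate 3 (adjusted p 0.0507 to 0.145). PNRC1, a nuclear receptor coactivator, stood at 29.6, 11.7 and 9.54 CPM in H803A replicates 1 to 3, 25.1, 21.9, 20.1 and 18.3 in H976Y, 20.1, 33.3, 29.9 and 29.1 in H709A and 12.5, 10.6 and 10.7 with TMP195. With TMP195 it was below every H709A library, by -1.32 ± 0.34 (adjusted p = 0.0365). The call was lost without H976Y replicate 1, 2 or 3, H709A replicate 2, 3 or 4 or any TMP195 library (adjusted p 0.0567 to 0.158). WASF1 was lower with TMP195 than in H709A by -0.95 ± 0.26 (adjusted p = 0.0453), a call lost without any H976Y or TMP195 library or H709A replicate 2, 3 or 4 (adjusted p 0.0585 to 0.191).

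**Figure D5:**
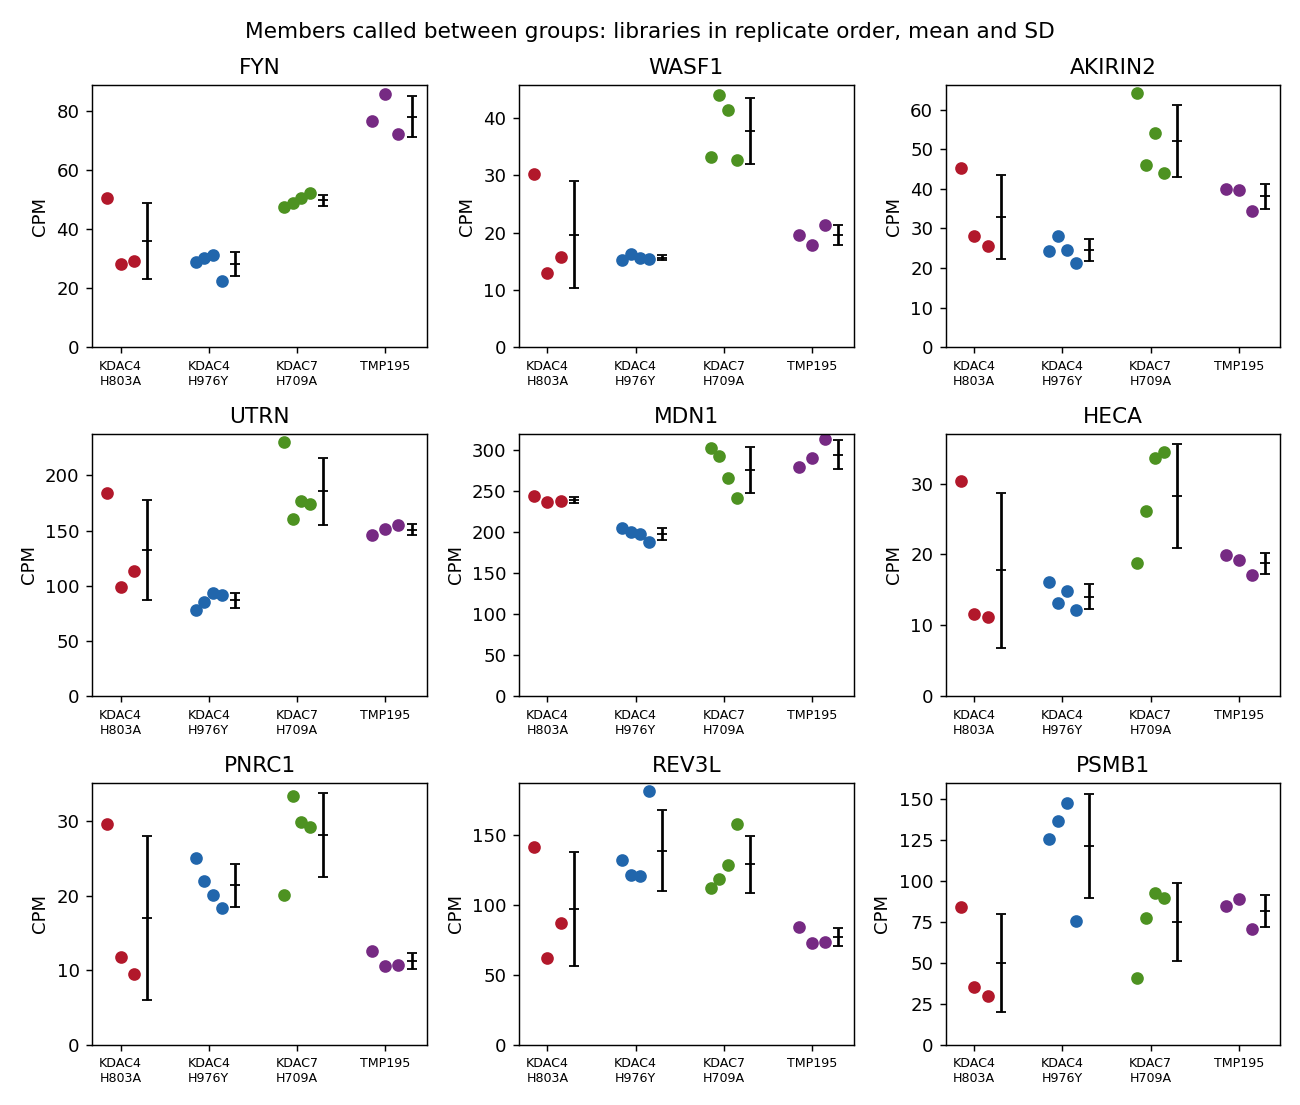
CPM of the 9 members called in any comparison between groups, in each library in replicate order, with the group's mean and SD beside it; each vertical axis starts at 0. FYN is highest with TMP195 (72.2 to 85.7 CPM), WASF1 is highest in KDAC7 H709A (32.6 to 44.1 CPM), and KDAC4 H803A replicate 1 lies above replicates 2 and 3 in all 9 genes.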

How the data were processed

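Expected counts per gene are used as deposited by the authors in 1 table (60675 genes). Trimmomatic 0.39, Bowtie2 2.4.5, RSEM 1.3.3, DESeq2 1.38.2 and GRCh38 are named, with no roles, per the submitters' processing notes. RSEM shares reads among transcripts, so near-identical genes are uncertain. The sources used here give neither strand setting nor annotation, so reads of antisense or overlapping neighbours cannot be told apart. 0 columns were left unmapped.

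Counts were rounded, filtered with filterByExpr (minimum count 10, minimum total 15, leaving 17780 genes), scaled by TMM and fitted for all 4 groups in 1 model with edgeR 4.0.16 (limma 3.58.1, R 4.3.3), and p-values were Benjamini-Hochberg adjusted over all genes. Standard errors were taken as log2 fold change over the root of the F statistic. CPM is counts per scaled library size. Deviations used a pseudocount of 0.5, and GC and log2-length trends (natural splines, 4 degrees of freedom each) were fitted outside chromosome 6. Gene features and coordinates (counted from 1) are those of GENCODE v29 on GRCh38, matched by identifier for 57055 genes, with the longest coding transcript per gene. The fit was tested on simulated data for TMP195 against H976Y (17780 genes, dispersion 0.05, under the 0.179 of the real libraries): 61% of 100 genes changed 2-fold and 100% of 100 genes changed 4-fold were recovered, with 10 false calls. The simulated libraries also had no GC skew and none unlike its group, so these rates do not carry over to the real fit. Precision is set by depth and by 3 or 4 libraries per group.

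The 60 members, their roles, the partner lists and the named genes were chosen with earlier results of these data known. Named were 27 members listed by role, the 3 lowest and 3 highest members in H803A replicates 2 and 3, and up to 10 called members per comparison. Same-numbered replicates deviated together in few of 19 pairs (r from -0.73 to 0.42, 5 above 0.1), so numbers were not treated as pairs. Alternatives were DESeq2 1.42.0 (test and size factors), no filter, a replicate block, GC and length offsets, other pseudocounts and references, coding genes as the reference (added after the data were seen) and leaving out each library.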

Additional observations from a re-analysis of the deposited data

Results flagged for a closer look

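Of 62 sets of 4 library values checked among named members, 4 held a library that lay far from the other 3 for the spread of its group, where chance alone gives about 1 in 20. In H976Y, replicate 4 was low for TAB2 (44.9 CPM, against 59.9 to 62.9 CPM), CCNC (30.5 CPM, against 39.4 to 41.0 CPM) and IGF2R (360.2 CPM, against 505.5 to 514.1 CPM). That library has the fewest counts (6151383) and the largest share of mitochondrial ribosomal RNA (31.5%), whose part in this was not tested. In H709A, replicate 1 was low for PTPRK (66.2 CPM, against 159.8 to 175.2 CPM), and it is the library of that group with the skew toward GC-rich genes (1.15 on the log2 scale).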

How the results depend on the processing

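The low median of the members in H803A replicates 2 and 3 kept its sign in the 7 alternatives over members, from -0.59 (mean expression added to the trend) to -1.31 (no trend removed) and from -0.69 to -1.28. That of H709A replicate 1 was -0.56 with no trend removed, 0.11 with mean expression added and 0.05 against coding genes, so its sign is not settled. The other coding genes of the segment stood at 0.10 there. Counts of called members varied with the libraries kept. Leaving out 1 library at a time gave 0 to 50 members for H803A against H976Y, 0 to 55 against H709A and 0 to 40 against TMP195, 3 to 11 for H709A against H976Y, 1 to 11 for TMP195 against H976Y and 0 to 12 for TMP195 against H709A. The highest value came each time without H803A replicate 1, where 45.3%, 25.7%, 14.5%, 18.5%, 27.3% and 14.6% of all genes were called. Of the other single omissions, that of any of H976Y replicates 1 to 3, H709A replicates 2 to 4 or TMP195 replicates 1 to 3 left 0 member calls for TMP195 against H709A (2.27% to 4.7% of all genes were called). That of H709A replicate 1 left 3 for H803A against H976Y, 1 higher and 2 lower (26.6% of all genes). Without H803A replicate 2 the 1 member called in that comparison was higher (6.85% of all genes). With GC and length offsets and without H803A replicate 1 the 6 counts, in the same order, were 42, 50, 51, 12, 17 and 7 (40.8%, 17.6%, 19.9%, 23.8%, 28.7% and 11.4% of all genes), and with no offsets but without both H803A replicate 1 and H709A replicate 1 they were 51, 56, 52, 28, 34 and 44 (60.6%, 61.6%, 41.6%, 33.9%, 48.3% and 47.6% of all genes were called). The GC and length offsets alone gave 4 members for H803A against H976Y, 1 higher and 3 lower, and 4 against TMP195, all lower (20.2% and 7.09% of all genes, against 6.78% of members). DESeq2's test gave 5 for H803A against H976Y (2 higher, 3 lower), 5 against TMP195 (1 higher, 4 lower) and 6 for TMP195 against H709A (1 higher, 5 lower). Of all genes it called 24.6%, 10.9% and 14%, above the members' 8.47%, 8.47% and 10.2%. DESeq2's size factors in edgeR gave 2 for H803A against TMP195, both lower (5.58% of all genes). Without a filter the counts were 0 for H803A against H976Y, 2 (lower) against TMP195, 1 (higher) for TMP195 against H976Y and 1 (higher) against H709A (5.65%, 2.2%, 6.35% and 2.56% of all genes). With the replicate number as a block, which the labels do not tie to a shared batch, they were 0 for H803A against H976Y, 1 for TMP195 against H976Y and 0 for TMP195 against H709A, and 4 for H709A against H976Y (6.92%, 8.75%, 2.55% and 7.44% of all genes). The cause of these differences was not tested. Over the 14 calls of named members and 21 alternatives each, 0 of 294 values changed direction, 206 kept the call and 88 lost it, 8 of these under the replicate block. Counts over all genes moved too: for H803A against H976Y 2679 genes were called by edgeR, 4377 by DESeq2, 1230 with the block and 8431 without H803A replicate 1. Depth limits MARCKS, NT5E and MAP7 most, the members with the lowest mean CPM.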

Other observations

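Several other genes of the arm are widely studied and were looked up after values had been seen. HDAC2, a class I deacetylase, stood at 205.0, 40.6 and 36.0 CPM in H803A replicates 1 to 3 and at 48.9 to 205.9 CPM in the other libraries. CDK19, the paralog of CDK8 that pairs with the member CCNC, stood at 26.0, 3.10 and 1.54 CPM, against 5.56 to 27.8 CPM elsewhere. CITED2, a coregulator of CBP and p300, and HSF2, a heat shock factor, were lowest of the 14 libraries in H803A replicates 2 and 3 as well, at 19.2 and 17.2 CPM and at 4.17 and 3.62 CPM. Genes of the same arm that were not low there include SOD2, the mitochondrial superoxide dismutase, at 330.2, 301.9 and 351.5 CPM in H803A replicates 1 to 3, TNFAIP3, an NF-kB feedback gene, at 20.2, 20.2 and 25.3 CPM, and PRDM1, a zinc finger repressor, at 5.19, 9.69 and 9.76 CPM.

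THBS2, a matrix glycoprotein near the end of the arm, was at 82.4 CPM in H803A replicate 1 and at 0.0969 and 0 CPM in replicates 2 and 3, and its other libraries ran from 13.7 to 166.1 CPM. MOXD1, a monooxygenase-like gene of the arm, divided the libraries differently: it was at 0 CPM in H803A replicate 1 and H709A replicates 1 and 4, and at 2.30 to 17.1 CPM in the other 11.

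Outside chromosome 6, 255 bins of 10 Mb with at least 15 coding genes were examined. In H803A replicate 2 the highest of 9 bins on 6q from 80 Mb was at -0.44 (log2, trends removed) and 2 of the 255 other bins lay below it. In replicate 3 the highest was at -0.14 and 119 others lay below it. The bin of chromosome 7 from 150 Mb (36 genes) was low in both, at -0.85 and -0.78. Low in replicate 2 was also the bin of chromosome 5 from 80 Mb, at -0.53. In replicate 3 the bin of chromosome 7 from 110 Mb was at -0.62, and those of X from 0, 150 and 130 Mb at -0.60, -0.59 and -0.51.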
